A study of Rattus norvegicus with 12 samples.

Results

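In all, 9 genes that mark the excitatory neurons of the cortical layers were followed through RNA from the cerebral cortex of 12 rats. They were taken by symbol from a table of 17268 genes and are Cux1, Cux2 and Rorb of the upper layers, Fezf2, Etv1, Tle4, Tbr1 and Foxp2 of the deep layers, and Neurod6, which excitatory neurons of all layers share. All 9 members were in the table and all 9 passed the filter on low counts in every comparison. The rats were adult male Sprague Dawley animals, 3 in each of 4 groups with 1 library per rat. Sham rats had the operation without a clot, and Model rats had an embolic stroke in which a blood clot was injected into the middle cerebral artery. The rt-PA rats had the stroke and then 10 mg/kg recombinant tissue plasminogen activator, the clot-dissolving drug, through the tail vein at 6 h. The rt-PA+Acu rats had the stroke and the same drug, and before it Xingnaokaiqiao acupuncture at the points GV26 and PC6 at 2 h. No group had the stroke with acupuncture alone, so the acupuncture was measured only on top of rt-PA.

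Neurons of the cortex sit in layers that differ in where their axons go. The upper layers send axons mainly to other cortical areas, layer 4 receives input from the thalamus, layer 5 sends axons to the striatum, brainstem and spinal cord, and layer 6 sends axons to the thalamus. Each identity rests on transcription factors that are set up in development and kept in the adult, and several of them repress the programs of the neighbouring layers. The middle cerebral artery supplies the lateral cortex through all of its layers. In bulk RNA, fewer cells of a type and less RNA per cell cannot be told apart.

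Values are CPM, counts scaled to a common library size, with library totals adjusted by TMM, a correction for differences in RNA composition between libraries. CPM are not corrected for gene length, so they are compared between libraries and not between genes. Total counts lay between 11678450 and 13616935 per library, and the lowest count of a member in a library was 63, so no member was near the limit of detection. Differences are log2 fold changes with a standard error (SE) from edgeR's quasi-likelihood test on the 6 libraries of a comparison, with Benjamini-Hochberg adjusted p over all genes tested. A gene was called when its adjusted p was under 0.05 and its log2 fold change was over 1 in size.

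The libraries differed in more than their group. The summed CPM of 9 oligodendrocyte genes was 12160.5, 15357 and 18170.3 in Sham, 1773, 3916 and 8637 for Model, 2792, 11625 and 3489 for rt-PA and 21378, 8920.0 and 3320.3 for rt-PA+Acu, so that libraries within each of the 3 stroke groups differed by several fold in myelin RNA. Genes of striatal projection neurons, whose cells lie under the cortex, summed to 461, 1258 and 954 CPM in Sham and to 199 to 376 CPM in the other 9 libraries, and none of the 9 genes in the table was at 0 in every library. Drd2, the striatal dopamine receptor, was at 3.95, 48.8 and 34.3 CPM in Sham and at 1.73 to 5.42 CPM in the other groups, so Sham replicates 2 and 3 held striatal RNA. Rpl39, a ribosomal protein gene that was chosen after its values were seen, was at 9.17 to 11.5 CPM in Sham and at 11.7 CPM in Model replicate 3 but at 42.6 to 71.1 CPM in the other 8 libraries, and no source used here names a batch that matches this split. Genes that mark excitatory cortical neurons were present in all libraries, with Slc17a7, the vesicular glutamate transporter of these cells, at 525 CPM or more.

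In the Model rats most layer genes were lower than in Sham, and the fall crossed the layers. Neurod6 fell the most, Cux2, Rorb and Tbr1 fell to about the same extent as each other, Cux1 and Tle4 fell by less than the size asked for a call, and Fezf2 of layer 5 did not pass the test. With rt-PA alone no member passed the test against Model. With rt-PA and acupuncture 5 members, Cux2, Rorb, Etv1, Tbr1 and Neurod6, were called higher than with rt-PA alone, of which Rorb and Tbr1 lost the call when certain single libraries were left out, and no member was called against Sham. Cux1, Fezf2, Tle4 and Foxp2 did not pass the test in that comparison.

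**Figure D1:**
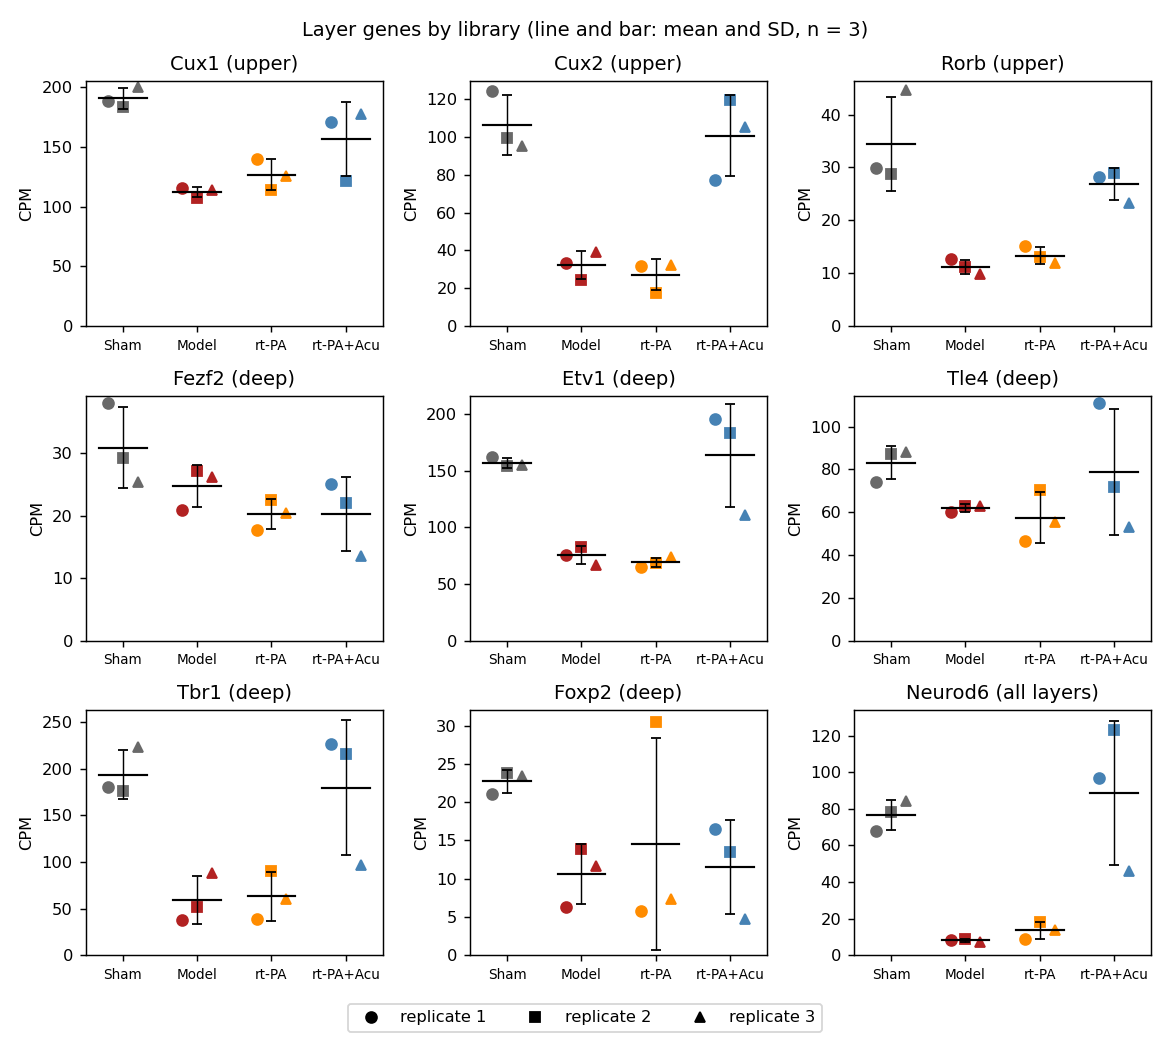
CPM of the 9 layer genes (vertical axes, each from 0) in the 3 libraries of each group (horizontal axes). Marker shapes give the replicate, the line and bar give the mean and SD (n = 3), and 3 rt-PA+Acu libraries lie with Sham for Cux2 while the 6 Model and rt-PA libraries lie below both.

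The promoters of 3 members are printed to show the sequence in front of the gene that fell the most (Neurod6), a deep-layer gene that fell (Tbr1) and a deep-layer gene that was not called (Fezf2). RefSeq gives a window of 250 bases before to 50 bases after the start of the gene for 8 of the 9 members, on build GRCr8, which is not the build of the counts (mRatBN7.2). Capitals mark matches to 6 motifs on either strand: CAGATG (an E-box bound by NeuroD factors), TGANTCA (AP-1), TGACGTCA (cAMP response element), ACGTG (core of hypoxia response elements, which can overlap the cAMP response element), AGGTCA (nuclear receptor half-site) and TATAAA (the core of the TATA motif). N stands for any base, so TGANTCA is a loose form of the AP-1 site.
Neurod6 promoter, chr4:86180106-86180405, minus strand: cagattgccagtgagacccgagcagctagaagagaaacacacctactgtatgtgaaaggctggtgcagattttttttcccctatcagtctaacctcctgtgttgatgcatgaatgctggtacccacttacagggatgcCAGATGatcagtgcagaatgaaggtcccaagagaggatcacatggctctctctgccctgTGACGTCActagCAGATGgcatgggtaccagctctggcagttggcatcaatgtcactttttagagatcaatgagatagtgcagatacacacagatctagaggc
Tbr1 promoter, chr3:66759553-66759852, plus strand: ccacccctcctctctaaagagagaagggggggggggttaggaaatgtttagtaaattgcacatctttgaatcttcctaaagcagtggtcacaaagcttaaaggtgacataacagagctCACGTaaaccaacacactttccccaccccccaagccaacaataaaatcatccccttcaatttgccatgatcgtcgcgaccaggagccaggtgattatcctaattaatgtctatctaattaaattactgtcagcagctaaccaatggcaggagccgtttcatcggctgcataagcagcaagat
Fezf2 promoter, chr15:15203943-15204242, plus strand: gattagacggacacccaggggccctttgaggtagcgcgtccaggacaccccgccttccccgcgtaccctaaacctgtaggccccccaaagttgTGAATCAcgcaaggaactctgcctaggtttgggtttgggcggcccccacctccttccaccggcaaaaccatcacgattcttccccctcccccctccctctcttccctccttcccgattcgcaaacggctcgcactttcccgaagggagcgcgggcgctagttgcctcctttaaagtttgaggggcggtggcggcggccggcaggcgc

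The Neurod6 window held 2 CAGATG matches, which began 112 and 41 bases before the start, and 1 TGACGTCA match 53 bases before it. Of all 33469 windows, 16.6% held the former and 1.83% the latter. The Tbr1 window held ACGTG at 132 bases before the start, as did Rorb at 49, against 19.3% of all windows. The Fezf2 window held TGANTCA, in the form TGAATCA, at 157 bases before the start. Of all windows, 7.33% held TGANTCA with any base at N. No member window held AGGTCA or TATAAA, which 16.2% and 14.2% of all windows did, and those of Cux1, Cux2, Etv1 and Tle4 held no match to any of the 6. The windows differed in base composition, with a G and C share of 48.3% for Neurod6, 45.3% for Tbr1, 63.3% for Fezf2 and 73.0% for Cux2 against a median of 51.7%, and 2, 6, 23 and 46 CpG pairs in the same order against a median of 7. A match is a run of letters and was not tied to the levels of these genes by any measurement here.

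Among the upper-layer genes, Cux2 is a homeodomain transcription factor of layers 2 to 4 that promotes dendrite branching and spine formation. Cux2 was at 124, 99.2 and 95.4 CPM in Sham, 33.2, 24.2 and 39.1 CPM in Model, 31.9, 17.6 and 32.1 CPM in rt-PA and 77.3, 119.7 and 105 CPM in rt-PA+Acu. The Sham and rt-PA+Acu libraries overlapped, and all 6 libraries of Model and rt-PA lay below all 6 of the others. In Model it was lower than in Sham (log2 fold change -1.72, SE 0.18, adjusted p = 0.000159), and in rt-PA+Acu it was higher than with rt-PA alone (log2 fold change 1.89, SE 0.26, adjusted p = 0.00298).

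Its paralog Cux1, which is also made by other cell types, moved less. Cux1 was at 188, 183 and 200.4 CPM in Sham, 115, 107 and 114 CPM in Model, 139.9, 114 and 126 CPM in rt-PA and 171, 121 and 178 CPM in rt-PA+Acu. The 3 Model libraries lay close together and below every Sham library, and the 2 treated groups spread further, with rt-PA+Acu replicate 2 inside the rt-PA range. The fall from Sham to Model had an adjusted p of 0.000173 and a log2 fold change of -0.76, which is under the size asked for a call. Against rt-PA the rt-PA+Acu value was 0.31 with a 95% interval of -0.08 to 0.69 (adjusted p = 0.182). The log2 CPM of Cux2 minus that of Cux1 was -1.07 to -0.60 in Sham, -2.14 to -1.54 for Model, -2.69 to -1.96 for rt-PA and -1.14 to -0.02 for rt-PA+Acu, so the pair did not move in step.

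Rorb encodes the nuclear receptor that marks layer 4 and takes part in the grouping of its cells around thalamic axons. Rorb was at 29.9, 28.8 and 44.6 CPM in Sham, 12.6, 11.2 and 9.91 CPM in Model, 15.1, 13.1 and 11.9 CPM in rt-PA and 28.2, 29.0 and 23.4 CPM in rt-PA+Acu. As with Cux2, the Model and rt-PA libraries lay below all 6 others. Rorb was lower in Model than in Sham (log2 fold change -1.61, SE 0.20, adjusted p = 0.000336). In rt-PA+Acu against rt-PA it passed the size for a call only just (log2 fold change 1.01, SE 0.16, adjusted p = 0.00420), and 4 of the 6 fits without 1 library put it at 0.93 to 0.99, with adjusted p up to 0.0213.

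Of the deep-layer genes, Etv1 is an ETS transcription factor of layer 5. Etv1 was at 162, 154 and 155 CPM in Sham, 75.8, 83.0 and 67.1 CPM in Model, 64.9, 68.5 and 73.5 CPM in rt-PA and 196, 183 and 111 CPM in rt-PA+Acu. Sham was tight, Model and rt-PA lay at about the same level, and rt-PA+Acu replicate 3 stood between them and the other libraries. Etv1 was lower in Model (log2 fold change -1.05, SE 0.10, adjusted p = 8.86e-05) and higher in rt-PA+Acu than with rt-PA alone (log2 fold change 1.24, SE 0.20, adjusted p = 0.00505). Without Model replicate 3 the fall was -0.97, just under the size for a call, with an adjusted p of 5.44e-05.

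Fezf2, the zinc-finger factor that directs layer 5 neurons to send axons below the cortex, changed less than Etv1 did. Fezf2 was at 38.0, 29.2 and 25.4 CPM in Sham, 20.9, 27.1 and 26.2 CPM in Model, 17.7, 22.5 and 20.4 CPM in rt-PA and 25.0, 22.1 and 13.6 CPM in rt-PA+Acu. Model overlapped Sham, and the difference was -0.32 with a 95% interval of -0.72 to 0.09 (adjusted p = 0.1597). All 3 rt-PA libraries lay below all 3 Sham libraries, with a log2 fold change of -0.63 (adjusted p = 0.0161). Between rt-PA+Acu and rt-PA the difference was 0.00 with a 95% interval of -0.54 to 0.54 (adjusted p = 1.00).

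Tbr1, a T-box factor of layer 6 and the subplate that represses Fezf2 and the layer 5 program, fell by about as much as Cux2. Tbr1 was at 181, 176 and 223 CPM in Sham, 38.2, 51.4 and 87.9 CPM in Model, 38.6, 90.2 and 60.5 CPM in rt-PA and 226, 216 and 96.1 CPM in rt-PA+Acu. No Model or rt-PA library reached Sham, and rt-PA+Acu split into replicates 1 and 2 at Sham level or above and replicate 3 near the highest rt-PA library. Tbr1 was lower in Model than in Sham (log2 fold change -1.70, SE 0.27, adjusted p = 0.00108) and higher in rt-PA+Acu than with rt-PA alone (log2 fold change 1.51, SE 0.39, adjusted p = 0.0217). The latter call was lost in 4 of the 6 fits without 1 library (without rt-PA replicate 1 or 3, or rt-PA+Acu replicate 1 or 2), where the adjusted p was 0.0629 to 0.0724. The log2 CPM of Tbr1 minus that of Fezf2 was 2.24 to 3.13 in Sham, 0.86 to 1.74 for Model, 1.12 to 2.00 for rt-PA and 2.81 to 3.28 for rt-PA+Acu, so these 2 deep-layer genes changed unequally in the Model and rt-PA libraries.

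Tle4, a Groucho-family corepressor of the layer 6 neurons that project to the thalamus, had the next smallest change after Fezf2 in Model against Sham. Tle4 was at 74.2, 87.1 and 88.2 CPM in Sham, 60.0, 63.1 and 62.9 CPM in Model, 46.5, 70.2 and 55.5 CPM in rt-PA and 111, 71.8 and 53.3 CPM in rt-PA+Acu. The Model libraries lay close together below Sham, and rt-PA+Acu spanned from below every Model library to above every Sham library. Tle4 was lower in Model (log2 fold change -0.42, SE 0.10, adjusted p = 0.00641) by less than the size asked for a call, and in rt-PA+Acu against rt-PA its 95% interval was -0.17 to 1.08 (adjusted p = 0.222).

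Foxp2 is a forkhead repressor of layer 6 that striatal neurons also make. Foxp2 was at 21.0, 23.8 and 23.5 CPM in Sham, 6.34, 13.9 and 11.6 CPM in Model, 5.76, 30.5 and 7.38 CPM in rt-PA and 16.5, 13.5 and 4.70 CPM in rt-PA+Acu. One library, rt-PA replicate 2, stood above Sham while the other 2 of its group were below every Sham library. Sham replicate 1, the Sham library with the least striatal RNA, had the lowest Foxp2 of its group, and the 3 Sham values differed by little. Foxp2 was lower in Model than in Sham (log2 fold change -1.10, SE 0.26, adjusted p = 0.00731), and without Model replicate 1 the value was -0.83. In rt-PA against Sham the log2 fold change was -0.66 (adjusted p = 0.344), and without rt-PA replicate 2 it was -1.80 (adjusted p = 0.000135). The rt-PA+Acu value against rt-PA was -0.33, with a 95% interval of -1.93 to 1.26 (adjusted p = 0.728).

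Neurod6, a basic helix-loop-helix factor of excitatory cortical neurons in all layers, separated the groups the furthest. Neurod6 was at 67.9, 78.4 and 84.2 CPM in Sham, 8.24, 9.06 and 7.43 CPM in Model, 8.67, 18.2 and 13.8 CPM in rt-PA and 97.0, 123 and 46.0 CPM in rt-PA+Acu. The lowest Sham library was several times the highest rt-PA library, and the Model libraries spread least. The fall in Model was log2 fold change -3.21, SE 0.13, adjusted p = 4.31e-06, which placed it 87th from the lowest of the 12884 fold changes and 13th by p. In rt-PA+Acu it was higher than with rt-PA alone (log2 fold change 2.71, SE 0.40, adjusted p = 0.00361). There replicates 1 and 2 exceeded every Sham library, while replicate 3 lay below every Sham library.

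As a group, 6 of the 9 members were called lower in Model than in Sham, 2 of 3 upper, 3 of 5 deep and Neurod6, where 12% of all genes tested were called lower. By adjusted p alone 8 of 9 were lower, against 26.6% of all genes, and for 8 of 9 the 3 Model libraries lay below the 3 Sham libraries, against 31.4% of all genes. The median log2 fold change was -1.10 over the members, -1.61 over the upper and -1.05 over the deep genes, and 0.01 over all genes. Model replicate 3, the library that lay with Sham at Rpl39, was also set alone against Sham, a choice made after the values were seen and with no spread within Model, so that it gives values and no test. Tbr1 was then at -1.13, Cux2 at -1.44 and Neurod6 at -3.36. Without Model replicate 3, 5 were called and the 3 values were -2.10, -1.87 and -3.14.

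**Figure D2:**
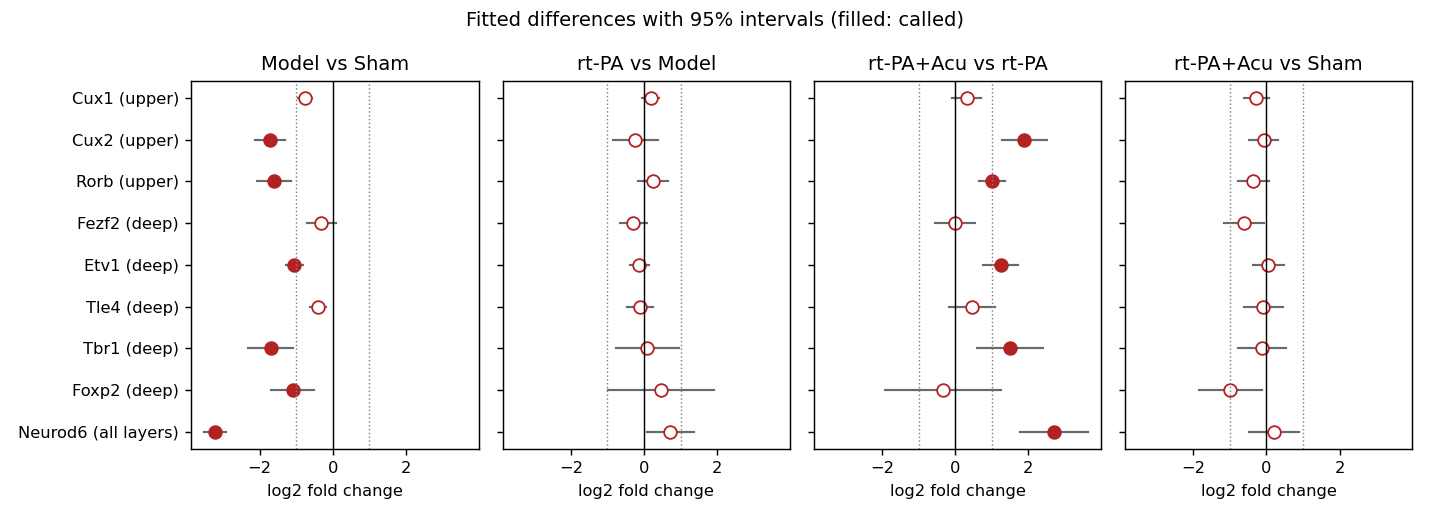
Log2 fold changes of the 9 layer genes in 4 comparisons (horizontal axes) with their 95% intervals from edgeR, filled where called, with dotted lines at a log2 fold change of -1 and 1. Filled points lie to the left in Model vs Sham (6 genes) and to the right in rt-PA+Acu vs rt-PA (5 genes), and there are none in rt-PA vs Model or rt-PA+Acu vs Sham.

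In rt-PA against Model, the question of what the late drug alone added, 0 members and 0% of all genes passed an adjusted p of 0.05 in edgeR's quasi-likelihood test. At an unadjusted p under 0.05 there were 1284 genes, of which 1 was a member, and DESeq2 called 74 genes and 0 members. That member was Neurod6, at 0.72 with a 95% interval of 0.07 to 1.36 (adjusted p = 0.456). The intervals of the other members ran from -0.06 to 0.41 for Cux1 to -0.99 to 1.91 for Foxp2, so changes of nearly 2-fold could not be told from 0 for Cux2 or Tbr1, whose intervals were -0.85 to 0.37 and -0.76 to 0.95. Against Sham, which is also the reference of the Model comparison, rt-PA had 5 members called lower and 8 of 9 lower by adjusted p, against 11.6% and 27.3% of all genes.

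In rt-PA+Acu against rt-PA, 5 of 9 members were called higher and 5 passed by adjusted p, against 7.17% and 17% of all genes. The 3 rt-PA+Acu libraries lay above the 3 rt-PA libraries for 5 of 9 members, against 24.4% of all genes. The 5 were 2 of 3 upper genes, 2 of 5 deep genes and Neurod6. The count was 3, with Rorb and Tbr1 lost, without rt-PA replicate 3, rt-PA+Acu replicate 1 or rt-PA+Acu replicate 2. Against Model, 5 were called higher and 6 passed by adjusted p, the sixth being Cux1 (0.48, adjusted p = 0.0450), where 7.9% and 17.4% of all genes did. Cux1 no longer passed without 1 library in 5 of 6 fits (adjusted p up to 0.149), with the replicate number as a block (0.0744) or with library size alone (0.0832). The calls against Model were 4 with that block and 3 without rt-PA+Acu replicate 1. Tbr1 lost its call against Model with the block. It also lost it without Model replicate 1 or 2, or rt-PA+Acu replicate 1 or 2 (adjusted p up to 0.0678). These 2 comparisons share the rt-PA+Acu libraries.

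Against Sham, no member differed in rt-PA+Acu at an adjusted p under 0.05, where 5.1% of all genes tested did in edgeR's quasi-likelihood test, and DESeq2 called 0 members. At an unadjusted p under 0.05 there were 2 members, Fezf2 and Foxp2. Foxp2 was at -0.99 (95% interval -1.84 to -0.13, adjusted p = 0.161) and Fezf2 at -0.62 (95% interval -1.17 to -0.07, adjusted p = 0.169), and for these and Cux1 (-0.28, adjusted p = 0.296) all 3 rt-PA+Acu libraries lay below all 3 Sham libraries, 3 of 9 members against 15.7% of all genes. The interval was -0.48 to 0.33 for Cux2, -0.77 to 0.54 for Tbr1, -0.38 to 0.49 for Etv1 and -0.49 to 0.89 for Neurod6, which bounds how far each could lie from Sham.

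To set upper against deep layers, the mean log2 CPM of Cux1, Cux2 and Rorb was compared with that of Fezf2, Etv1, Tle4, Tbr1 and Foxp2 in each library, as a description with no test. The upper mean was 6.34 to 6.57 in Sham, 4.95 to 5.19 for Model, 4.90 to 5.35 for rt-PA and 6.17 to 6.25 for rt-PA+Acu. Its libraries therefore fell into a high and a low level with no library between. The deep mean was 6.13 to 6.16 in Sham, 4.90 to 5.36 for Model, 4.71 to 5.64 for rt-PA and 5.04 to 6.19 for rt-PA+Acu, which joined the levels, with rt-PA+Acu replicate 3 at the level of Model. The difference of the means, upper minus deep, was 0.21 to 0.41 in Sham, -0.37 to 0.29 for Model, -0.73 to 0.64 for rt-PA and -0.02 to 1.21 for rt-PA+Acu. Model minus Sham was -0.42, larger than the SD between libraries of 0.26, although 1 Model library lay inside the Sham range. The rt-PA+Acu minus rt-PA difference was 0.48, smaller than its SD of 0.67. Leaving Cux1 out made Model minus Sham -0.71, and taking medians of the genes in place of means made it -1.003, so its size rests on which genes stand for a layer.

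**Figure D3:**
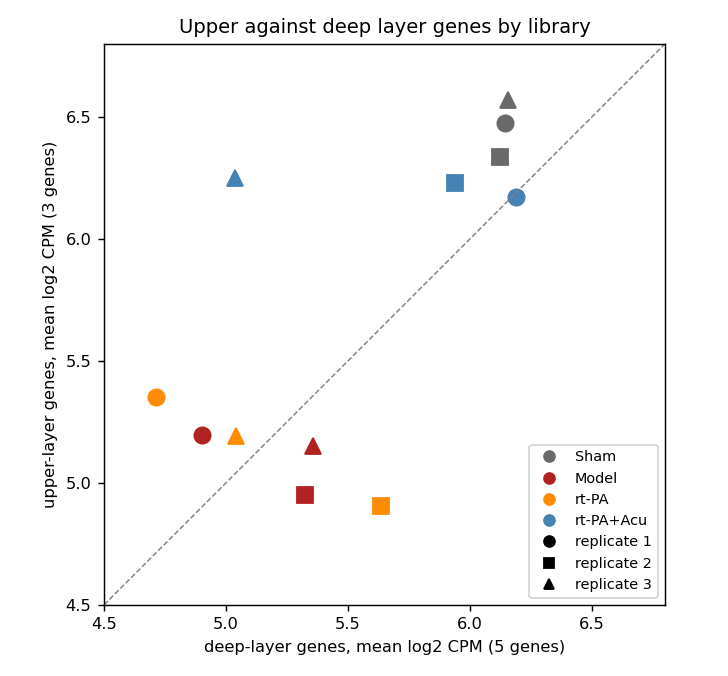
Mean log2 CPM of the 3 upper-layer genes (vertical axis) against that of the 5 deep-layer genes (horizontal axis) in each of the 12 libraries, with colours for the group and shapes for the replicate. The Model and rt-PA libraries lie at 4.90 to 5.35 on the upper axis and the Sham and rt-PA+Acu libraries at 6.17 to 6.57, while on the deep axis the rt-PA+Acu libraries run from 5.04 to 6.19.

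Several deep-layer genes ran with myelin RNA between rats of 1 group. In each group the library with the most oligodendrocyte RNA had the highest Tbr1, and the library with the least had the lowest Tle4 and the lowest Foxp2. Tbr1 and Tle4 followed the order of the oligodendrocyte sum in 3 of 4 groups, Fezf2, Foxp2 and Neurod6 in 2, Etv1 in 1, and Cux1, Cux2 and Rorb in 0. Of all 12744 genes at a mean of 1 CPM or more, 5.98% followed it in at least 3 groups and the median was 1 group. The rt-PA library with high Foxp2 (30.5 CPM) was the one with an oligodendrocyte sum of 11625 CPM, and rt-PA+Acu replicate 3, low in Foxp2, Tle4, Tbr1 and Etv1, was the one with 3320 CPM. That replicate also had the lowest sums of its group for genes of excitatory neurons (3284 CPM) and of neurons of any type (6632 CPM). Its sum of the 3 upper-layer members (306 CPM) was the highest of its group. In Model against Sham, 6 of the 9 oligodendrocyte genes were called lower.

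With the log2 oligodendrocyte sum as a term in 1 fit over all 12 libraries, a fit added after the values were seen, 3 members were called lower in Model than in Sham. The same fit without the term called 5, with Foxp2 at an adjusted p of 0.131 and Tle4 at 0.127. The 3 members called with the term were Cux2 at -2.01, Rorb at -1.60 and Neurod6 at -2.63. Tbr1 was then at -0.83 and Etv1 at -0.86. Both were still lower at an adjusted p under 0.05, but by less than the size asked for a call. Tle4, Foxp2 and Fezf2 were at 0.08, 0.32 and 0.03 (adjusted p of 0.765, 0.564 and 0.922), on the other side of 0. In the fit with the term, 5 members were called in rt-PA+Acu against rt-PA, 4 in rt-PA+Acu against Model (Etv1 at 0.98) and 4 in rt-PA against Sham (Tbr1 at -0.88), where each count was 5 without it. The oligodendrocyte sum itself lay lower in every Model library (1773 to 8637 CPM) and rt-PA library (2792 to 11625 CPM) than in any Sham library (12160.5 CPM or more). The term therefore overlaps with the group, and the fit cannot fully separate them in the comparisons of these groups with Sham. Whether the dissected pieces held different shares of deep cortex and white matter was not tested.

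**Figure D4:**
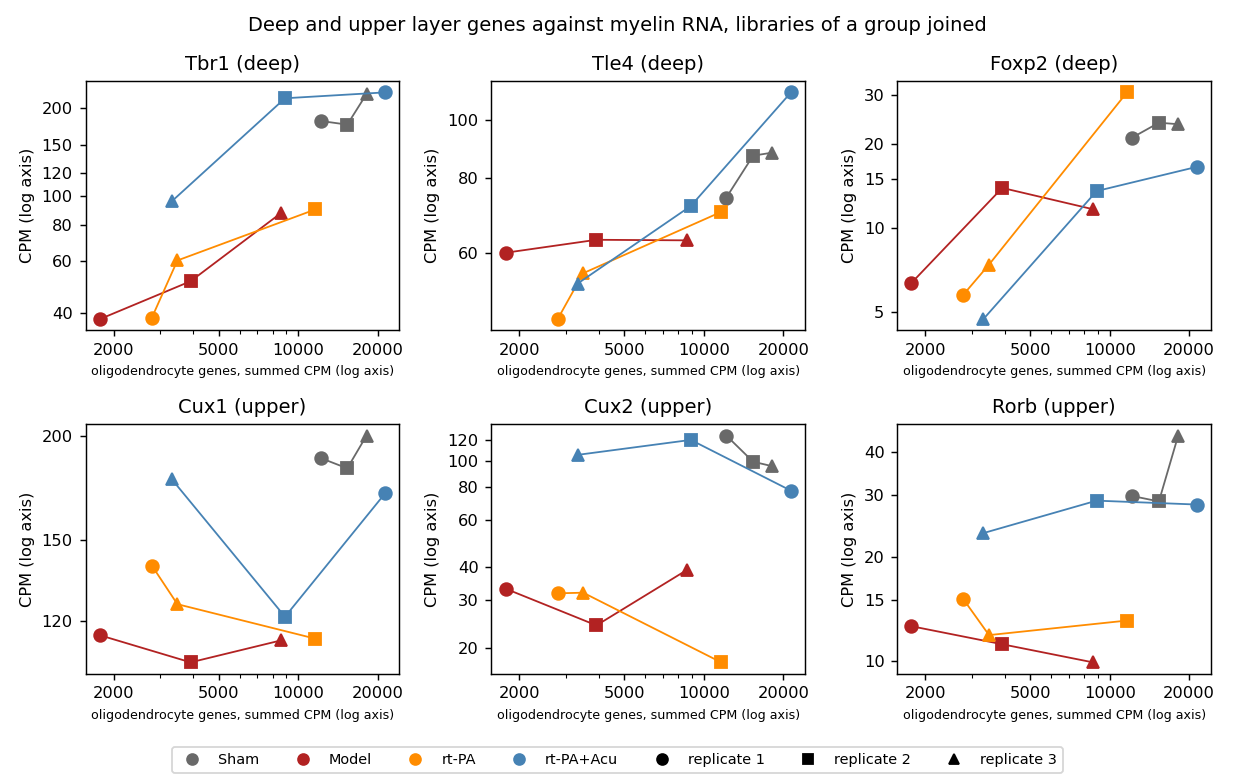
CPM of 3 deep-layer genes (upper row) and 3 upper-layer genes (lower row) against the summed CPM of 9 oligodendrocyte genes, both on log axes, with the libraries of a group joined by lines. Lines for Tbr1, Tle4 and Foxp2 mostly rise to the right, while those for Cux1, Cux2 and Rorb do not share a direction.

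Set against the other RNA of excitatory neurons, the members separated again. Slc17a7 was lower in Model than in Sham (log2 fold change -0.87, SE 0.09, adjusted p = 0.000159), and Rbfox3, the neuronal nuclear antigen gene, was at -1.04 (adjusted p = 0.00495), while Snap25, a presynaptic gene of all neurons, was at 0.28 (adjusted p = 0.0719). Relative to Slc17a7 in the same library, Neurod6 was lower in Model than in Sham by -2.32 on the log2 scale, Tbr1 by -0.91, Cux2 by -0.86 and Rorb by -0.70, with no overlap between the libraries of the groups. Fezf2 was higher by 0.57 and Tle4 by 0.46 on the same scale, also without overlap, and Cux1, Etv1 and Foxp2 overlapped. Relative to Rbfox3, Neurod6 (-2.12), Tbr1 (-0.71) and Tle4 (0.65) were again apart, while Cux2 (-0.66), Rorb (-0.51) and Fezf2 (0.77) overlapped between the groups. A ratio within a library shows that genes changed unequally and not which of them changed.

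Other genes of the same layers, on lists that hold none of the members, gave a mixed picture. Of 14 other upper-layer and layer 4 genes, 5 were called lower and 2 higher in Model, with a median of -0.61. Otof, the otoferlin gene that marks layer 2 and 3, fell the most (77.00, 40.4 and 61.9 CPM in Sham and 6.26, 5.67 and 4.38 CPM in Model, log2 fold change -3.45, SE 0.26, adjusted p = 3.79e-05). Inhba, which encodes an activin subunit that neurons induce with activity, rose the most (4.35, 4.05 and 4.10 CPM in Sham and 198, 131 and 71.6 CPM in Model, log2 fold change 5.01, SE 0.39, adjusted p = 3.83e-05), and Lmo4 and Calb1 were at -0.16 (adjusted p = 0.283) and -0.35 (adjusted p = 0.121). In rt-PA+Acu against rt-PA, 4 were called higher and 2 lower, with Otof at 2.698 (adjusted p = 0.00435) and Inhba at -3.81 (adjusted p = 0.000303).

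Of 13 other layer 5 genes, 8 were called lower and 1 higher in Model, with a median of -1.01. Lratd2 fell the most (15.9, 16.8 and 18.1 CPM in Sham and 3.82, 4.15 and 4.21 CPM in Model, log2 fold change -2.05, SE 0.16, adjusted p = 4.33e-05). S100a10, the annexin partner p11, which other cell types also make, was the 1 called higher (18.7, 18.7 and 21.5 CPM in Sham and 222, 157 and 107 CPM in Model, log2 fold change 3.06, SE 0.25, adjusted p = 5.02e-05). Bcl11b, the zinc-finger factor that acts downstream of Fezf2 in layer 5 and is also high in striatal neurons, was at 63.1, 116 and 88.8 CPM in Sham, 24.0, 43.3 and 43.7 CPM in Model, 28.3, 54.1 and 32.5 CPM in rt-PA and 48.5, 59.9 and 34.0 CPM in rt-PA+Acu. It was at -1.27 (adjusted p = 0.00469) in Model against Sham and at 0.31 (adjusted p = 0.426) in rt-PA+Acu against rt-PA, where 4 genes of the list were called higher and 1 lower. Sulf2 and Pcp4 were at -0.20 (adjusted p = 0.478) and -1.003 (adjusted p = 0.0402) in Model. Pcp4 overlapped between the groups, at 111, 255 and 248 CPM in Sham and 63.0, 102 and 139 CPM in Model. Sham replicate 1, the Sham library with the least striatal RNA, had the lowest Pcp4 and the lowest Bcl11b of its group. The part of striatal RNA in these 2 falls was not tested.

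Of 14 other layer 6 and subplate genes, 4 were called lower and 1 higher in Model, with a median of -0.96. Oprk1, the kappa opioid receptor, fell the most (7.17, 11.9 and 7.16 CPM in Sham and 0.534, 0.508 and 2.73 CPM in Model, log2 fold change -2.79, SE 0.58, adjusted p = 0.00417), and Sulf1, a heparan sulfatase, rose (23.1, 33.9 and 19.9 CPM in Sham and 37.9, 90.8 and 56.6 CPM in Model, log2 fold change 1.27, SE 0.32, adjusted p = 0.00945). In rt-PA+Acu against rt-PA, edgeR called 0 of the list higher and 2 lower, with 0 higher at an unadjusted p under 0.05 and 0 called higher by DESeq2, while the upper-layer and layer 5 lists had 4 called higher each. Of all genes tested, 7.17% were called higher in this comparison, so 0 in a list of 14 lies near that share. The difference between lists was not tested. Against Sham, 2 of its genes were called lower in rt-PA+Acu.

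Of 23 regulators of the fate of cortical projection neurons, 9 were called lower and 2 higher in Model, with a median of -0.82. Neurod1, a relative of Neurod6, fell the most (19.1, 12.6 and 11.2 CPM in Sham and 1.07, 0.677 and 0.661 CPM in Model, log2 fold change -4.12, SE 0.33, adjusted p = 4.29e-05). Mef2c, an activity-dependent factor of excitatory neurons that microglia also make, was at 435, 348 and 429.9 CPM in Sham, 124, 123 and 133 CPM in Model, 144, 147 and 151 CPM in rt-PA and 508, 604 and 394 CPM in rt-PA+Acu. Sox11, a factor of immature neurons, rose (log2 fold change 2.07, SE 0.33, adjusted p = 0.00113). In rt-PA+Acu against rt-PA, 7 were called higher and 1 lower, the latter being Sox11 (-2.32, adjusted p = 0.00198). Against Sham edgeR called 0 of the 23 in rt-PA+Acu, with 5 at an unadjusted p under 0.05 and 1 called by DESeq2.

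**Figure D5:**
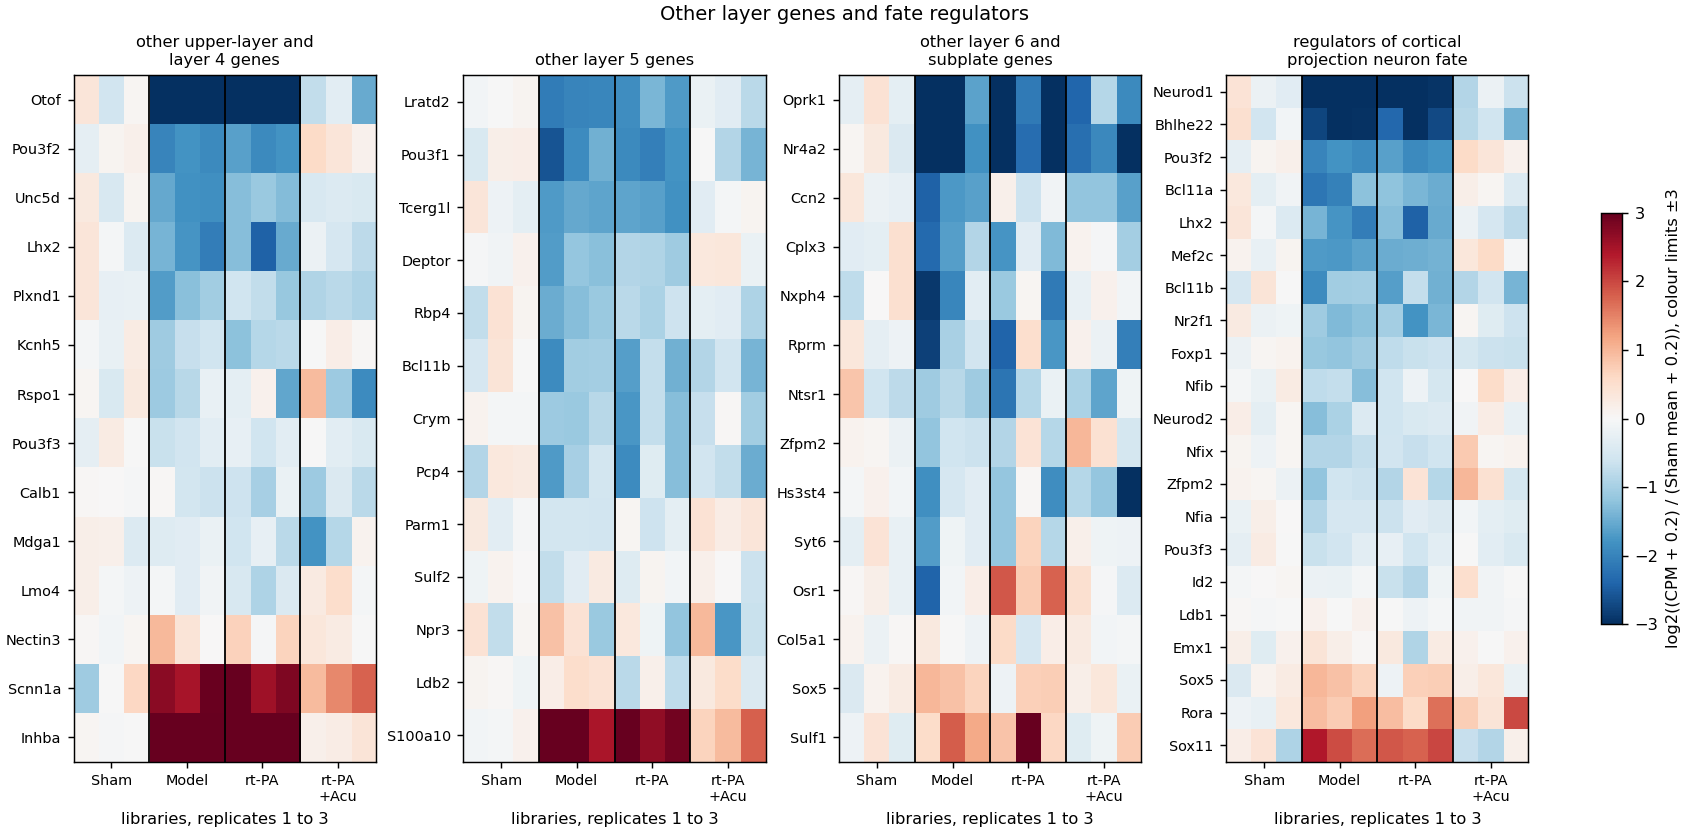
Log2 of CPM plus 0.2 relative to the Sham mean plus 0.2 for 4 lists of other cortical genes (rows, less 2 regulators that are not shown, ordered by their Model vs Sham log2 fold change) in the 12 libraries (columns), blue for lower and red for higher, with colours cut at 3. Blue fills the Model and rt-PA columns of most rows and is paler in rt-PA+Acu for many of them. It is not paler in some rows of different lists, such as Nr4a2 and Hs3st4 of layer 6 and the subplate and Calb1 of the upper layers. These were picked from this map after their values were seen, and other layer 6 and subplate genes such as Cplx3 are paler. Inhba, S100a10, Scnn1a and Sox11 are red in Model and rt-PA.

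Lists of neurons in general held rises as well as falls. Of 13 genes of excitatory neurons of any layer, 5 were called lower and 1 higher in Model, with Camk2a, the kinase subunit of excitatory synapses, at -2.30 (adjusted p = 6.02e-06) and Slc17a6 at 1.02 (adjusted p = 0.00225). Of 12 genes of neurons of any type, 2 were called lower, with Tubb3 at 0.75 (adjusted p = 0.000139) and Map2 at -1.02 (adjusted p = 0.000182). Of 12 interneuron genes, 2 were called lower and 1 higher, with Gad1, the GABA-making enzyme, at 0.87 (adjusted p = 0.000876), Reln at 0.19, Dlx6 at -1.22 and the neuropeptide gene Npy at 2.702 (adjusted p = 2.25e-05). The summed CPM of the interneuron list was 757 to 842 in Sham and 1004 to 1382 in Model. Its genes did not move together, since 7 of the 12 were below 0 and the median log2 fold change was -0.10.

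Other cells moved with the groups too, and their part in the values of the layer genes was not tested. Of 8 striatal genes tested, 7 were called lower in Model and 6 lower in rt-PA+Acu than in Sham, with Ppp1r1b at -1.98 in Model. Of 9 astrocyte genes, 6 were called lower and Gfap higher (397, 414 and 363 CPM in Sham and 2485, 4085 and 3456 CPM in Model, log2 fold change 3.10, SE 0.18, adjusted p = 1.21e-05). Of 9 microglia genes, 3 were called lower, with Aif1 at -1.03 and P2ry12 at -3.64. Genes of infiltrating myeloid cells summed to 58 to 68 CPM in Sham, 170.1 to 247 CPM in Model, 228 to 495 CPM in rt-PA and 36 to 59 CPM in rt-PA+Acu, with 1 of the 10, Mpo, at 0 in every library. Those of endothelial cells summed to 173 to 216 CPM in Sham, 228 to 437 CPM in Model, 302 to 436 CPM in rt-PA and 106 to 116 CPM in rt-PA+Acu. The endothelial genes did not move together in Model against Sham. Of 7 tested, 1 was called higher (Kdr at 2.84), 1 was called lower (Emcn at -1.25) and 3 were below 0. Kdr had the highest mean CPM of the list and so weighs most in its sum.

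For each member the genes with the most similar profile were found as those with the smallest root mean square difference in log2 CPM over the 12 libraries, each gene centred on its own mean, among 12743 genes. The nearest were Rbm24 for Cux2 (0.264), Idh2 for Rorb (0.189), Cdk19 for Cux1 (0.119), Lmo3 for Tbr1 (0.202), Wdr17 for Etv1 (0.123), Ttll5 for Tle4 (0.114), Bcl2l2 for Fezf2 (0.179), Bcas1 for Foxp2 (0.365) and Map2k6 for Neurod6 (0.332), all on the log2 scale. The next were Ecm2 and Cpne6 for Cux2, Sptb and Zbtb18 for Rorb, Mllt6 and Nfic for Cux1, Lrrc4 and Necab3 for Tbr1, Dipk2a and Nalcn for Etv1, Trim37 and Lmbrd1 for Tle4, Ocel1 and Mif for Fezf2, Carns1 and Col25a1 for Foxp2, and Gucy1a1 and Abcd2 for Neurod6. No member was among the 3 nearest genes of another. Bcas1, which myelinating oligodendrocytes make, was at 294 ± 71.1 CPM in Sham, 161 ± 86.4 CPM in Model, 166 ± 135 CPM in rt-PA and 216 ± 146 CPM in rt-PA+Acu (SD, n = 3), and Foxp2 had the poorest nearest match of the 9. Map2k6, a kinase gene of the p38 pathway, was at 26.9 ± 4.23 CPM in Sham, 3.67 ± 0.420 CPM in Model, 3.63 ± 1.42 CPM in rt-PA and 27.9 ± 9.29 CPM in rt-PA+Acu (SD, n = 3).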

How the data were processed

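Poly(A)-selected, strand-marked libraries from the cortex of 12 rats were sequenced. The deposited table holds raw counts of whole reads for each gene symbol, which the authors made from paired-end reads on the build mRatBN7.2. Their processing notes name STAR 2.7.10a, Salmon 1.9.0 and featureCounts 2.0.1, while the paper names STAR and Salmon. The annotation release and the use of molecular identifiers in counting are not given in the sources used here, and reads counted without them are not independent molecules. Counting uses each gene symbol once, so isoforms such as those of Cux1 were not separated.

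Counts were analysed here in R 4.3.3 with edgeR 4.0.16. Each comparison was fitted on its own 6 libraries over genes that pass filterByExpr, with TMM factors (0.948 to 1.08) and the quasi-likelihood test with Benjamini-Hochberg adjustment. Log2 CPM used a prior count of 2. Fitted on simulated counts for Model vs Sham (12799 genes after the filter), this recovered 94.5% of 200 genes changed 4-fold. Alternatives were DESeq2 1.42.0, other scalings and filters, 1 fit over all libraries, a replicate block, no fold threshold, other forms of the upper-minus-deep mean and leaving out each library, and 2 were added after seeing the data. Groups came from the deposited labels, and the counts of any 2 libraries of a group differed by more than sampling noise (chi-square of 8.73 to 51.1 per degree of freedom).

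The members and lists were chosen with earlier results of these data known. Genes named are the members, the 3 genes nearest to each, and for each list the 2 with the highest mean CPM and those with the largest and smallest Model vs Sham log2 fold change, plus 10 general cell type genes. Rasgrf2, Auts2, Nrgn, Pvalb, Tac1, Flt1, Slco1a4 and Abcb1a were not analysed here. The list of fate regulators and that of excitatory neurons were counted whole, but 2 of their genes, which the rule or the lists include, are not reported here by name. Plots were drawn with matplotlib.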

Additional observations from a re-analysis of the deposited data

How the results depend on the processing

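Of 765 alternative values of the members' log2 fold changes, 706 kept their direction and their side of the call, 24 lost the call, 1 gained it and 34 changed sign, none of the last with an adjusted p under 0.05 in both fits. In 1 fit over all libraries the Model vs Sham count was 5 in place of 6, and 3 with the oligodendrocyte sum added as a term. With that term signs changed for Fezf2 (0.033), Tle4 (0.078) and Foxp2 (0.32) for Model vs Sham, Tbr1 (-0.047) and Foxp2 (-0.084) for rt-PA vs Model, Fezf2 (-0.18) in rt-PA+Acu vs rt-PA, Tbr1 (0.22) and Tle4 (0.071) in rt-PA+Acu vs Sham, Tle4 (-0.0063) and Foxp2 (-0.86) in rt-PA+Acu vs Model, and Foxp2 (0.23) in rt-PA vs Sham. Fezf2 in rt-PA+Acu vs rt-PA, at 0.00, also went to -0.11 with library size alone, -0.0019 with at least 10 counts in every library and -0.033 with the replicate block. With no fold threshold, 8 members passed in rt-PA vs Sham in place of 5. The cause of these changes was not tested, except that a looser threshold can only add calls.

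Upper minus deep moved beyond the SD between libraries in Model vs Sham without Cux1 (-0.71) or with medians of the genes (-1.003), and with medians in rt-PA+Acu vs rt-PA (1.40) or rt-PA vs Sham (-1.35). Leaving out 1 library gave 5 to 6 calls in Model vs Sham, 0 in rt-PA+Acu vs Sham as well as in rt-PA vs Model, 3 to 5 in rt-PA+Acu vs rt-PA (3 without rt-PA replicate 3, or rt-PA+Acu replicate 1 or 2), 3 to 5 in rt-PA+Acu vs Model (3 without rt-PA+Acu replicate 1) and 5 to 6 in rt-PA vs Sham. Upper minus deep then ranged from -0.61 to -0.28 for Model vs Sham, -0.19 to 0.49 for rt-PA vs Model, 0.10 to 0.79 for rt-PA+Acu vs rt-PA, -0.18 to 0.43 for rt-PA+Acu vs Sham, 0.23 to 0.85 for rt-PA+Acu vs Model and -0.61 to 0.077 for rt-PA vs Sham. Signs changed without 1 library in rt-PA vs Model for Tbr1 (-0.25 to 0.49), Tle4 (-0.28 to 0.018) and Foxp2 (-0.69 to 0.84), in rt-PA+Acu vs rt-PA for Fezf2 (-0.18 to 0.23) and Foxp2 (-0.72 to 0.81), in rt-PA+Acu vs Model for Foxp2 (-0.22 to 0.50), and in rt-PA+Acu vs Sham for Cux2 (-0.22 to 0.085), Tbr1 (-0.31 to 0.18), Etv1 (-0.089 to 0.26), Neurod6 (-0.11 to 0.51) and Tle4 (-0.41 to 0.13).

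Replicate numbers were not treated as pairs of rats in the main fits. The correlation of same-numbered deviations from the group means over genes was over 0.1 in at most 1 of 3 pairs of a comparison (-0.28 to 0.16). In Model vs Sham all 3 were above 0 (0.054 to 0.13), and with 3 libraries a group these values cannot exclude pairing. With the replicate number as a block the members called were 6, 0, 5, 0, 4 and 5 in that order of comparisons, and Tbr1 in rt-PA+Acu vs Model had an adjusted p of 0.0702. In 1 fit over all libraries Foxp2 in Model vs Sham had an adjusted p of 0.131. Library size alone shifted the median of all genes by 0.15 in rt-PA vs Sham and put Etv1 in Model vs Sham at -0.98 and Rorb in rt-PA+Acu vs rt-PA at 0.90. Over all genes, rt-PA+Acu vs Sham had 263 calls, 422 with DESeq2 and 82 to 146 without a Sham library. With 3 rats a group, intervals as wide as those of Foxp2 leave changes of over 2-fold undetected.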
